A study of Mus musculus with 40 samples.

Results

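Methylation of the Gtl2-DMR was compared between E18.5 mouse embryos lacking both copies of the IG-CGI (IG-CGI ΔBi, 5 embryos) and E18.5 embryos lacking the maternal copy alone (IG-CGI ΔM, 2 embryos). The maternal IG-CGI was deleted in all 7 embryos, and the groups differed in whether the paternal copy was deleted too. The comparison therefore addresses what removal of the paternal IG-CGI does to the Gtl2-DMR when the maternal copy is already gone. These 7 libraries, of 40 in the series, were chosen by stage, by genotype and by a title naming the Gtl2-DMR under the gene's other name, Meg3. Each library held tail DNA of 1 embryo, converted with bisulfite, tagged with adaptors after conversion (PBAT) and enriched for the locus with RNA probes. WT and IG-CGI ΔP embryos (paternal copy deleted) of the same stage, 2 and 7 in number, served as the reference for the same deletion with the maternal copy present.

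In this model, the IG-CGI was flanked by loxP sites and removed by a Cre recombinase driven by the germ cell promoter Vasa, and matings of animals with the deletion in their germ cells gave the embryos. The labels place ΔBi embryos 2, 5 and 6 and ΔM embryo 3 under clone115, and ΔBi embryos 1 and 9 and ΔM embryo 5 under clone74, without saying what a clone is. The embryos were therefore compared within each clone as well. The labels name no strain for the embryos. Tail DNA came from a mixture of cells, and the percentages do not separate the parental alleles.

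The Dlk1-Dio3 domain is an imprinted cluster, in which Dlk1, a growth regulator, is expressed from the paternal chromosome and the long non-coding RNA Gtl2 from the maternal chromosome. The IG-DMR is methylated on the paternal chromosome in the germ line, and the IG-CGI is the CpG island at its 5′ end. The Gtl2-DMR, at the promoter of Gtl2, acquires paternal methylation only after implantation, and methylation there accompanies silence of the paternal Gtl2 copy.

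RefSeq places Gtl2, as Meg3, on the plus strand of chromosome 12 at 109540996 to 109571729 (GRCm38.p6). The submitters' processing notes name mm10, the same assembly. CpGs in a window around this start were used. The 7 libraries together listed 24 positions in it, from 109540490 to 109541070, and 19 of them were listed in both ΔM libraries and in at least 3 ΔBi libraries. These 19 run from 109540573 to 109541032, with 16 upstream of the annotated Gtl2 start and 3 inside the gene, 11, 31 and 36 bases after the start. The other 5 positions carried 8 values, all at 0%.

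The promoter sequence is shown because 13 of the 19 CpGs lie in it, and each is a CG in the RefSeq sequence. It covers chr12:109540746-109541045 (GRCm38.p6, plus strand), from 250 bases before the start to 50 after it, with each CG in capitals:
Meg3 promoter: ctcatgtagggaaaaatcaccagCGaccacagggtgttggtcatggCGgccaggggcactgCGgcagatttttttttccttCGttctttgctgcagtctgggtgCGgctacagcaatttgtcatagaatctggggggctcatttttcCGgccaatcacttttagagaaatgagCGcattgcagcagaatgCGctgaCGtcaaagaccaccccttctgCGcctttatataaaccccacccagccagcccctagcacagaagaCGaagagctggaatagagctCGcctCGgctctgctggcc
Of 32851 RefSeq promoter windows of the same length, 37.9% hold at least as many CGs as these 13, so the window is not unusually dense in CpGs. Of the positions listed in the 7 libraries within it, 109540988 is not a CG in the reference. Its only value, 0% in ΔM clone74 embryo 5, was kept in the level of that embryo given below.

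With the paternal IG-CGI deleted in addition to the maternal one, methylation at the Gtl2 promoter was low or close to absent. The level of an embryo, the unweighted mean over its listed CpGs, was 0.754% in clone115 embryo 2, 10.5% in clone115 embryo 5 and 0.0359% in clone115 embryo 6 of the ΔBi group. It was 5.01% in clone74 embryo 1 and 1.0% in clone74 embryo 9 of that group. The ΔM embryos had 42.3% in clone115 embryo 3 and 30.2% in clone74 embryo 5. The groups did not overlap, and 19.7 percentage points separated the highest ΔBi embryo from the lower ΔM embryo.

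The means were 3.45% ± 4.37 in ΔBi (SD, n = 5) and 36.2% ± 8.55 in ΔM (SD, n = 2), a difference of -32.8 percentage points. All 5 ΔBi embryos were lower than both ΔM embryos (two-sided exact permutation, 21 splits, p = 0.0476, the smallest p that these groups allow). Adjusted by the Benjamini-Hochberg method over 4 embryo-level tests (the level, the share of CpGs at 0%, the contrast across the Gtl2 start and the comparison with ΔP and WT), this p was 0.0635 and did not pass 0.05. No coverage accompanies the percentages, so the depth of each library is unknown, and a CpG covered by few molecules weighs as much as any other.

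**Figure D1:**
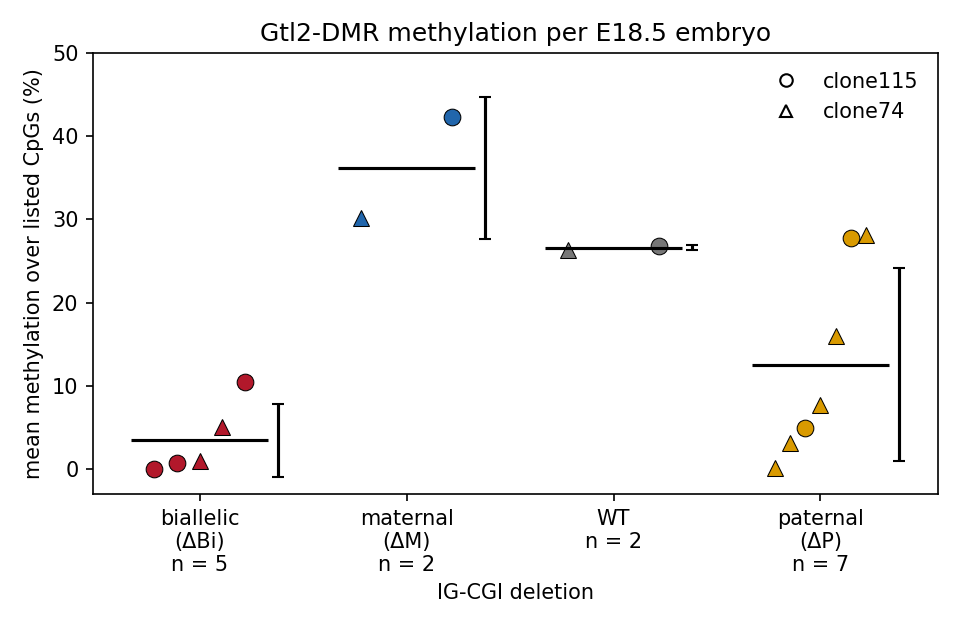
Mean methylation of the Gtl2-DMR (vertical axis, %) in each E18.5 embryo by IG-CGI genotype (horizontal axis), with circles for clone115 and triangles for clone74, horizontal lines at group means and error bars of 1 SD. The 5 ΔBi embryos lie between 0.0359% and 10.5%, below the ΔM embryos at 30.2% and 42.3%, while the 7 ΔP embryos spread from 0.151% to 28.1%. Each mean is over the positions that the library listed, which differ between embryos.

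Within clone115, the 3 ΔBi embryos had a mean of 3.75% ± 5.82 (SD, n = 3) against 42.3% in the ΔM embryo, a difference of -38.5 percentage points. Within clone74, the 2 ΔBi embryos had 3.00% ± 2.83 (SD, n = 2) against 30.2%, a difference of -27.2. Every ΔBi embryo was thus below the ΔM embryo of its own clone. With 1 ΔM embryo in each clone, an exact permutation test cannot give less than 0.25 in clone115 or 0.333 in clone74. Permutation of the labels within clones, over 12 arrangements, gave p = 0.0833, the smallest possible (two-sided exact permutation test). Among ΔBi embryos, clone115 and clone74 differed by 0.747 percentage points, less than the spread between embryos (two-sided exact permutation, 10 splits, p = 1). The ΔM embryo of clone115 was 12.1 percentage points above that of clone74, with 1 embryo each and no replicate check. ΔM clone74 embryo 5 also listed 4 positions at 0% that the other ΔM embryo did not list. Over the 19 CpGs that both listed, the levels were 42.3% and 36.5%, and the gap was 5.74 percentage points.

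Most ΔBi CpGs were listed at exactly 0%, above all upstream of the Gtl2 start. The share of listed CpGs at 0% was 85.7%, 58.8% and 93.8% in clone115 ΔBi embryos 2, 5 and 6, and 70.6% and 95.0% in clone74 ΔBi embryos 1 and 9. In the ΔM embryos it was 15.8% in clone115 and 21.7% in clone74, the latter falling to 5.26% over the 19 CpGs alone. The group means were 80.8% ± 15.7 in ΔBi (SD, n = 5) and 18.8% ± 4.21 in ΔM (SD, n = 2). The ΔBi mean was 62.0 percentage points higher, again without overlap (two-sided exact permutation, 21 splits, p = 0.0476, the smallest possible, with an adjusted p of 0.0635).

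Of 87 ΔBi values at the 19 CpGs, 70 were 0% and 17 were above it, whereas 34 of 38 ΔM values were above 0%. Clone115 embryo 6 had 1 value above 0%, of 0.575%, and clone74 embryo 9 had 1, of 20.0% at 109540963. Clone115 embryo 2 had 3, the highest being 14.3% at the same CpG. Above 0% were 8 of 72 ΔBi values upstream of the Gtl2 start and 9 of 15 inside the gene. The lowest ΔBi value above 0% was 14.3% upstream of the start and 0.392% inside the gene. Without coverage, whether the upstream CpGs could have registered a low percentage is unknown, so a value of 0% need not mean absence. The higher level of clone115 embryo 5 came from 7 CpGs, among them 100% at 109540807 and 33.3% at 109540792. Clone74 embryo 1 had 5 CpGs above 0%, with 33.3% at 109540919 and 25.0% at 109540936, and about 9% at each of the 3 CpGs inside the gene.

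**Figure D2:**
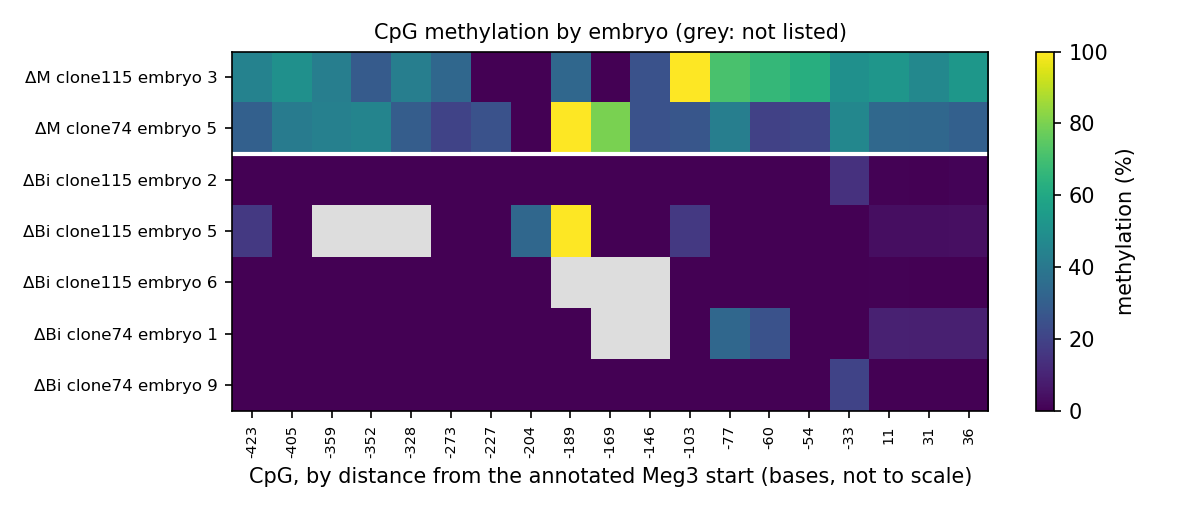
Methylation (color, %) at the 19 CpGs (columns, in order of distance in bases from the annotated Meg3 start) in the 2 ΔM and 5 ΔBi embryos (rows), with grey for CpGs a library did not list. The ΔBi rows are at 0% for 70 of 87 values, and the ΔM rows hold 4 values at 0%, all from position -227 to -169.

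CpG by CpG, the ΔBi mean was below the ΔM mean at 18 of 19 CpGs, with a median difference of -38.9 percentage points. At 14 of the 19 CpGs, every ΔBi embryo was below both ΔM embryos, which is 73.7% of the CpGs compared. These comprised 11 of the 16 upstream CpGs and all 3 CpGs inside the gene. Every listed ΔBi library was at 0% while both ΔM embryos were above 0% at 7 CpGs. In the two-sided exact permutation test, 10 of 19 CpGs (52.6%) had an unadjusted p under 0.05, all lower in ΔBi, and 0 of 19 passed after Benjamini-Hochberg adjustment, where the smallest adjusted p was 0.0905. That test cannot give less than 0.0476 for a single CpG listed in all 7 libraries, and its smallest p is higher where a library did not list the CpG, so that no CpG could pass after adjustment over 19. With limma, which shares the estimate of spread across CpGs, 14 of 19 (73.7%) had an adjusted p under 0.05, all lower in ΔBi, and these were the same 14 CpGs. Neighboring CpGs can be read on the same molecule, so the 19 tests are not independent of each other.

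Within clones, the pattern held at most CpGs. Of 13 CpGs listed in all 4 clone115 libraries, every ΔBi embryo was below the ΔM embryo at 11. Of 17 CpGs listed in all 3 clone74 libraries, both ΔBi embryos were below the ΔM embryo at 15.

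Among the 13 CpGs listed in all 7 libraries, the largest difference was at 109540893, at position -103 relative to the Gtl2 start. There 1 ΔBi embryo had 16.7% and the other 4 had 0%, a mean of 3.33% ± 7.45 (SD, n = 5). The ΔM embryos had 100% and 26.7%, a difference of -60.0 percentage points whose size depended on the ΔM pair. It was -23.3 without ΔM clone115 embryo 3 and -96.7 without ΔM clone74 embryo 5. The next was 109540919, with -50.5 percentage points. Here clone74 embryo 1 had 33.3% and the other ΔBi embryos 0%, against 71.4% and 42.9% in ΔM. At 109540591, all 5 ΔBi embryos were at 0% and the ΔM embryos at 50% and 41.7%, a difference of -45.8 percentage points. At each of these 3 CpGs the groups did not overlap (two-sided exact permutation tests, p = 0.0476, with an adjusted p of 0.0905).

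Among the same 13 CpGs, the smallest differences were at 109540792, 109540769 and 109540723. At 109540792 both ΔM embryos were at 0%, as were 4 of 5 ΔBi embryos, and clone115 embryo 5 alone had 33.3%, so that the ΔBi mean was 6.67 percentage points higher (two-sided exact permutation test, p = 1). Among the 13 CpGs listed in all 7 libraries, this CpG and 109540919 shared the largest SD over ΔBi embryos, 14.9. At 109540769 all ΔBi embryos were at 0%, as was ΔM clone115 embryo 3, while ΔM clone74 embryo 5 had 25.0%. At 109540723 the groups were apart again, with 0% in all 5 ΔBi embryos against 33.3% and 20.0% in ΔM, a difference of -26.7 percentage points.

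The groups overlapped at 5 CpGs, and 4 of these are neighbors, 109540769, 109540792, 109540807 and 109540827. All 4 ΔM values of 0% fell at these neighbors. At 109540807, the ΔM embryos had 33.3% and 100%, and the 4 ΔBi libraries that listed it had 0% in 3 embryos and 100% in clone115 embryo 5. At 109540827, the ΔM embryos had 0% and 80.0%, and the 3 ΔBi libraries that listed it had 0%. Here the spread between the ΔM embryos, an SD of 56.6, exceeded the difference of -40.0 percentage points. The fifth was 109540936, where ΔBi clone74 embryo 1, at 25.0%, lay between the ΔM embryos at 66.7% and 19.2%.

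**Figure D3:**
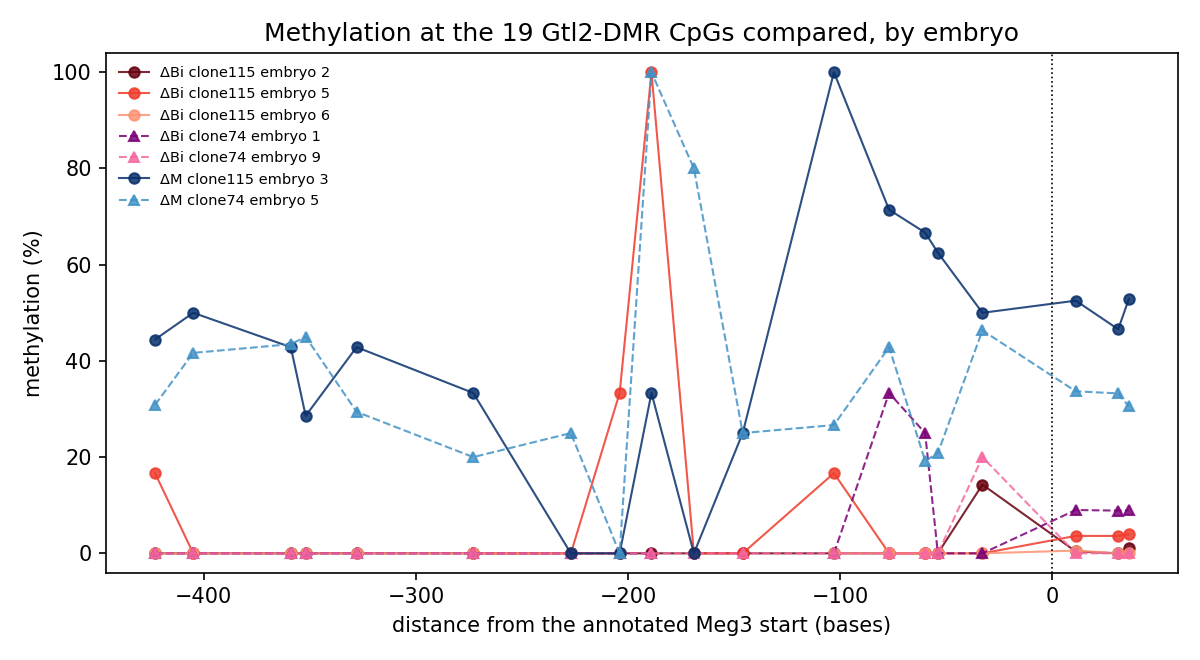
Methylation (vertical axis, %) of each ΔM embryo (blue) and ΔBi embryo (red and purple shades) at the 19 CpGs by distance from the annotated Meg3 start (horizontal axis, bases; dotted line at 0), with circles and solid lines for clone115, triangles and dashed lines for clone74, and line breaks at CpGs not listed. At the 3 CpGs inside the gene the ΔM embryos lie between 30.5% and 52.8% and the ΔBi embryos between 0% and 9.0%.

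The 3 CpGs inside the gene, within 25 bases of each other, gave similar values within each embryo. Their mean was 0.519%, 3.73% and 0.192% in clone115 ΔBi embryos 2, 5 and 6, and 8.93% and 0% in clone74 ΔBi embryos 1 and 9. In the ΔM embryos it was 50.6% in clone115 and 32.5% in clone74. In no ΔBi embryo did the 3 values differ by more than 1.17 percentage points, and in the ΔM embryos they differed by 6.27 and 3.15. ΔBi clone115 embryo 5, the highest over all CpGs, was thus low here, and clone74 embryo 1 was the highest ΔBi embryo.

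Upstream of the start, the mean over listed CpGs was 3.61% ± 4.90 in ΔBi (SD, n = 5) and 36.0% ± 6.58 in ΔM (SD, n = 2). Downstream it was 2.67% ± 3.82 and 37.5% ± 18.6, the latter including in clone74 embryo 5 a position at 0% beyond the 3 CpGs. The contrast of downstream minus upstream differed between ΔBi and ΔM by -2.40 percentage points, less than the spread between embryos (two-sided exact permutation, 21 splits, p = 0.714, adjusted p = 0.714). This value changed direction to 6.09 without ΔM clone115 embryo 3.

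Sequence motifs were searched on both strands of the promoter window. TGACGTCA, the palindromic cAMP response element bound by CREB, occurs once, 57 to 50 bases before the start, and 1.79% of the 32851 promoter windows hold it. The CpG in it is 109540942, where all 5 ΔBi embryos were at 0% and the ΔM embryos at 62.5% and 20.8%. TGCCGC, the motif that the imprinting regulator ZFP57 binds when methylated, occurs once, on the minus strand, and 11.6% of windows hold it. The CpG in it is 109540807, one of those at which the groups overlapped. TATAAA, the core of a TATA box, occurs on the plus strand 25 bases before the start, overlapping a second match on the minus strand, and 13.6% of windows hold it. It contains no CpG. Binding was not measured, so a match says only that the letters are present.

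With the maternal IG-CGI present, the difference that went with deletion of the paternal copy was smaller at the same stage, although the test of the 2 differences did not pass after adjustment. The level was 26.6% ± 0.286 in WT (SD, n = 2) and 12.5% ± 11.6 in ΔP embryos (SD, n = 7), a difference of -14.0 percentage points against -32.8 for ΔBi and ΔM. These levels include position 109540476, which no ΔBi or ΔM library listed. It was at 100% in WT clone115 embryo 4 and ΔP clone115 embryo 1, and at 50% and 100% in ΔP clone74 embryos 2 and 3. Over the 19 CpGs alone, the means were 25.4% in WT and 11.7% in ΔP. The difference between the 2 effects over all listed positions was -18.7 percentage points (two-sided exact permutation test of maternal status within each paternal status, 4752 arrangements, p = 0.0301, adjusted p = 0.0635). Both sides contributed, since the ΔM mean of 36.2% was above the WT mean and the ΔBi mean of 3.45% was below the ΔP mean. The ΔP embryos ranged from 0.151% to 28.1%. Of these, clone115 embryo 8 at 27.7% and clone74 embryo 3 at 28.1% were above both WT embryos. At single CpGs, the ΔBi minus ΔM difference was the lower one at 16 of 19, with medians of -38.9 and -16.9 percentage points. These 16 include 109540792, where both differences were above 0, at 6.67 and 13.9 percentage points. With only the positions inside the gene, the difference between the effects was -10.9 percentage points. It was not beyond the spread between embryos (two-sided exact permutation test, p = 0.428). These positions include some at 0% beyond the 3 CpGs there, listed by ΔM clone74 embryo 5 and ΔP clone74 embryo 7. At the 3 CpGs, ΔBi minus ΔM was -40.4, -37.4 and -38.9 percentage points. There ΔP minus WT was -25.6, -21.4 and -24.4. Without ΔM clone115 embryo 3 the difference between the effects was -12.7 over all CpGs.

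**Figure D4:**
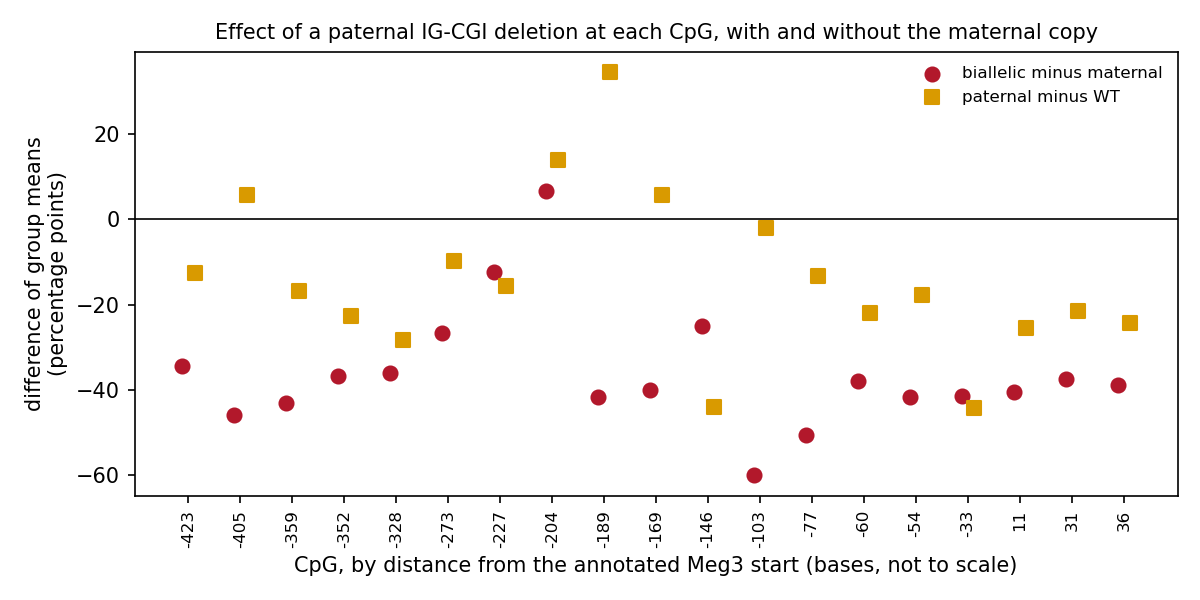
Difference of group means at each of the 19 CpGs (vertical axis, percentage points; horizontal axis, CpGs by distance in bases from the annotated Meg3 start, not to scale), for ΔBi minus ΔM (red circles) and ΔP minus WT (orange squares). The red circles are lower at 16 of 19 CpGs, and at position -204 both are above 0.

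The ΔM embryos were also captured at the IG-DMR, of which only CpGs from 109528135 to 109528471 were used. The mean was 86.2% in clone115 embryo 3 over 33 CpGs and 76.1% in clone74 embryo 5 over 29 CpGs. The paper reports full methylation of the IG-CGI in ΔM embryos and attributes it to the absent maternal copy. The values here do not separate the alleles, and the position of these CpGs relative to the deletion was not tested. Over the 29 CpGs that both listed, the levels were 91.2% and 76.1%.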

How the data were processed

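Bisulfite-converted tail DNA was captured and sequenced by the authors, 1 library per embryo, and the percent methylation of each CpG was deposited, without normalization between libraries. The submitters' processing notes name bcl2fastq 2.15.0.4, Bismark, Bowtie2 and mm10. A coverage filter or removal of duplicates is not given in the sources used here. The tables hold no coverage, so no interval was computed and a logistic model planned for read counts was not run, and p-values measure the spread between embryos. Of 120 pairs of E18.5 Gtl2-DMR libraries, 0 held identical values.

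An embryo's level was the mean over its listed CpGs. Group means were tested by two-sided exact permutation of the embryos, with p the share of splits whose absolute difference was at least as large. Single CpGs were tested the same way and, as an alternative, with limma 3.58.1 (R 4.3.3) on the percentages. Python 3.11.15, numpy 2.4.6, pandas 2.3.3 and matplotlib 3.10.9 were used, and the tests were tested on simulated data. The simulated CpGs were independent of each other and none was missing, unlike the CpGs here. CpGs described singly were, among those listed in all 7 libraries, the 3 largest and 3 smallest differences and the largest SD over ΔBi embryos, plus every CpG at which the groups overlapped. CpGs elsewhere are named beside a value. The alternatives were the median, shared CpGs, an additive fit of embryo and CpG, merged neighboring positions, leaving out each embryo, and permutation within clones. The embryos, window and tests were chosen with earlier results of these data known. Libraries of other stages were not used here.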

Additional observations from a re-analysis of the deposited data

Results flagged for a closer look

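At 5 of the CpGs described singly, 1 ΔBi embryo was above 0% while all other listed ΔBi embryos were at 0%. Such a set passes Dixon's test for an outlying value whatever the size of the single value, and these CpGs were partly picked for their spread or overlap, so the test adds nothing to the values. Dixon's test was also run on 5 measures over all CpGs of an embryo and found no outlying ΔBi embryo. The embryo above 0% was clone115 embryo 5 at 109540792 with 33.3%, at 109540807 with 100% and at 109540893 with 16.7%. It was clone74 embryo 1 at 109540919 with 33.3% and at 109540936 with 25.0%. The depth behind these values is unknown.

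The difference between the effects of a paternal deletion with the maternal copy deleted and with it present was -18.7 percentage points. Its unadjusted p was under 0.05 and its adjusted p was not (two-sided exact permutation test, p = 0.0301, adjusted p = 0.0635). It rests on 2 WT and 2 ΔM embryos, and its p was not under 0.05 in 7 of the 16 fits that left out 1 embryo.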

How the results depend on the processing

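The ΔBi and ΔM difference in level kept its direction throughout. It was -36.9 percentage points with the median, -35.4 with CpGs listed in all 7 libraries, and -35.2 with the additive fit, each at an exact permutation p of 0.0476. When 1 embryo was left out it ranged from -38.8 to -26.7 (exact permutation p from 0.0667 to 0.167). It was -38.5 within clone115 and -27.2 within clone74, and with labels permuted within clones -32.8 had an exact permutation p of 0.0833. These p-values are the smallest that the smaller groups allow. Fits added after the data were seen gave -35.8 with the 19 CpGs tested singly, which are also those listed in most of the libraries, -34.8 downstream and -32.4 upstream of the start. The difference in the share of CpGs at 0% ranged from 58.5 to 67.5 percentage points when 1 embryo was left out. CpGs without overlap numbered 14 to 16 without 1 embryo, 10 of 13 when listed in all 7 libraries, and 13 with a gap of at least 10 percentage points. By limma, with or without clone as a term, 14 CpGs had an adjusted p under 0.05. By exact permutation 0 did, with all embryos or without 1 ΔBi embryo. With all embryos no CpG could pass, since some libraries did not list every CpG. Without 1 ΔBi embryo the smallest exact permutation p, 0.0667, was itself above 0.05.

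The difference between the paternal deletion effects with and without the maternal copy ranged from -24.8 to -12.7 when 1 of 16 embryos was left out. It had an exact permutation p under 0.05 in 9 of these 16 fits. With the 19 CpGs tested singly, also added, it was -22.1 (exact permutation p = 0.0339). With the median it was -19.4 (exact permutation p = 0.0783). With all downstream positions, including those beyond the 3 CpGs, it was -10.9 (p = 0.428, exact permutation), a fit added after the data were seen. The downstream minus upstream contrast ranged from -10.9 to 6.09, and reversed without ΔM clone115 embryo 3. The cause was not tested. No paired analysis was possible because embryo numbers in the labels do not link embryos of different genotypes. The depth behind single CpGs is unknown.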
